A study of Mus musculus with 6 samples.

Results

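The classical MHC class II chains and the factors that switch on their genes were examined in hematopoietic stem cells (HSCs) with and without IRF1. The members were taken by symbol from the table of normalized counts. They were the chain genes *H2-Aa*, *H2-Ab1*, and *H2-Eb1*, the transactivator gene *Ciita*, the RFX subunit genes *Rfx5*, *Rfxap*, and *Rfxank*, and the NF-Y subunit genes *Nfya*, *Nfyb*, and *Nfyc*. All 10 were found among the 26264 genes of the table, and all 10 passed the filter on low values.

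MHC class II molecules are pairs of an α and a β chain that carry peptides to the cell surface for CD4+ T cells. Their genes share an upstream module of X and Y boxes that is bound by RFX, CREB-type factors, and NF-Y, and CIITA, which does not bind DNA itself, is recruited to this assembly and sets the output. IRF1 is an interferon-induced factor known to act at an interferon-responsive promoter of the transactivator gene.

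Bulk RNA-seq was performed on bone marrow HSCs of 3 WT and 3 *Irf1-/-* mice, with 1 library per mouse. WT mice were C57Bl/6 and *Irf1-/-* mice were B6.129S2-Irf1 tm1Mak/J, and all were untreated females of 8 weeks. The deletion was present in the whole body, and effects of other *Irf1-/-* cells on the HSCs cannot be told apart from effects inside them. HSCs were sorted as Lineage-Sca1+cKit+ CD150+CD48- cells, and libraries are named by the replicate numbers 2, 3, and 4 that the labels give in both genotypes. Values are normalized counts, that is, reads per gene divided by 1 size factor per library. Reads on genes were 43138521, 57281017, and 45129929 in *Irf1-/-* replicates 2, 3, and 4, and 59658080, 45332573, and 43267486 in the WT libraries in the same order. Values of the 3 libraries of a genotype are given in that order throughout.

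*Irf1*, the targeted gene, had 9267, 9524, and 9287 normalized counts in *Irf1-/-* HSCs. WT HSCs had 10122, 11120, and 12057.5. Every *Irf1-/-* library was below every WT library, but reads on the gene persisted, and 84.3% of the mean WT level remained in *Irf1-/-* HSCs (log2 fold change −0.24, adjusted *P* = 0.170, limma). These counts sum over the whole gene and do not separate its deleted part, so they do not check the genotype, which rests on the labels.

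The test between genotypes was limma, fitted to log2(normalized count + 1) for the 17404 genes whose mean was 10 or more. A negative log2 fold change is a lower value in *Irf1-/-* HSCs, and the added 1 understates changes of low genes. Calls required an adjusted *P* (Benjamini-Hochberg, all tested genes) below 0.05 and a log2 fold change beyond 0.58 in either direction. Of the 10 members, 4 were called lower, where 0.954% of all tested genes were, and 0 were called higher, where 0.96% were (limma; edgeR and DESeq2 also called 4 lower). In 4 members all *Irf1-/-* libraries lay below all WT libraries, against 9.27% of tested genes, and in 0 members they all lay above, against 10.6%. The called members were the 3 chains and *Ciita*. No RFX or NF-Y subunit was called. An unadjusted *P* under 0.05 was found for 16.5% of all tested genes in limma (2863 of 17404), and the counts of such *P* values given for the gene lists stand against that share.

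**Figure D1:**
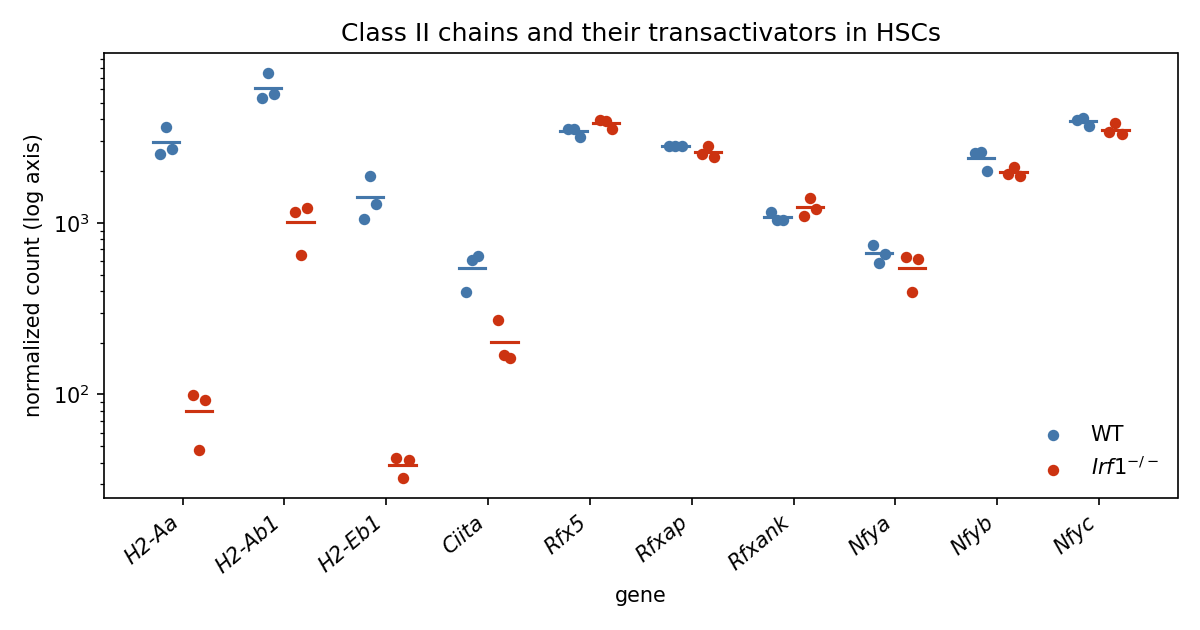
Normalized counts of the 10 members on a log axis, with a point for each of 3 WT and 3 *Irf1-/-* libraries and a bar at the mean of each genotype. The genotypes are apart for *H2-Aa*, *H2-Ab1*, *H2-Eb1*, and *Ciita*, and they overlap for the RFX and NF-Y subunits.

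The sorted identity was first checked on marker genes. All 9 HSC markers were detected in every library, with *Kit*, the stem cell factor receptor, the most abundant. Their summed normalized counts were 220360, 244352, and 223795 in *Irf1-/-* HSCs and 224459, 228611, and 207421 in WT HSCs, and the genotypes overlapped. An unadjusted *P* under 0.05 in limma was found for 6 of the 9 (*Ly6a*, *Slamf1*, *Procr*, *Hlf*, *Mecom*, and *Fgd5*). *Fgd5*, an HSC marker, was the only 1 of the 9 called, with 6752, 6881, and 6387 in *Irf1-/-* HSCs and 3918, 3818, and 3522 in WT HSCs (log2 fold change 0.83, adjusted *P* = 9.13e-05, limma). *Fgd5* was not called without the intensity trend in limma's prior variance (adjusted *P* = 0.0511, the largest of its 16 alternatives). *Procr* (log2 fold change 0.52) and *Ly6a* (−0.43), which encodes Sca1, had adjusted *P* values of 0.0112 and 0.0245 in limma but stayed below the fold threshold. *Procr* was just past it without WT replicate 2 (log2 fold change 0.5803, adjusted *P* = 0.0149, limma).

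Mature cells that carry class II at high levels, such as B cells and dendritic cells, were looked for in the same way. Lineage antigens named in the study's methods for bone marrow are CD4 and CD8 of T cells and B220 of B cells. The others are the myeloid antigens Gr-1 and CD11b, and Ter119 of erythroid cells. The gate was negative for these and for CD48, and positive for cKit, Sca1, and CD150. CD11c is not among the antigens named, and the share of mature cells left after the sort was not tested. Of 10 B cell markers, 9 were in the table, and they summed to 3213, 3011, and 3181 in *Irf1-/-* HSCs and to 2841, 3117, and 2821 in WT HSCs. *Cd79b*, a subunit of the B cell receptor, made up 92.4% of that sum. Without it the sums were 261, 226, and 267 in *Irf1-/-* HSCs and 151, 179, and 300.1 in WT HSCs, so that other B cell markers were low in both genotypes. *Pax5*, the B lineage factor, had between 2.47 and 18.3 normalized counts. No B cell marker was called by limma or edgeR among 8 tested, or by DESeq2 among the 2 to which it gave an adjusted *P*, and 1, *Cd22*, had an unadjusted *P* under 0.05 in limma. *Cd22*, an inhibitory receptor of B cells, had 58.6, 95.9, and 64.4 normalized counts in *Irf1-/-* HSCs and 15.6, 14.7, and 85.0 in WT HSCs. The genotypes overlapped through WT replicate 4 (log2 fold change 1.36, adjusted *P* = 0.279, limma). *Cd22* was called higher without that library (log2 fold change 2.16, adjusted *P* = 0.0225, limma) and in none of the other 15 alternatives, whose adjusted *P* values reached 0.625.

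The 9 dendritic cell markers summed to 3974, 4797, and 3793 in *Irf1-/-* HSCs and to 3067, 2129, and 3465 in WT HSCs. *Flt3*, a cytokine receptor that multipotent progenitors also carry, was the most abundant at 87.8% of the sum and was called higher (log2 fold change 0.67, adjusted *P* = 0.0407, limma). *Flt3* was no longer called when any 1 of the *Irf1-/-* replicates or WT replicate 3 was left out, or when the prior variance had no trend with intensity. Without *Flt3* the sums were 532, 321, and 333 in *Irf1-/-* HSCs and 411, 399, and 600.3 in WT HSCs. Of the 9 markers, 7 had a log2 fold change below 0 and 2 above, with a median of −0.47 against −0.0028 over all genes tested, and limma called 0 lower. *Flt3* was also the only 1 of the 9 with an unadjusted *P* under 0.05 in limma. *Zbtb46*, a dendritic cell transcription factor, had 231, 176, and 174 normalized counts in *Irf1-/-* HSCs and 236, 264, and 259 in WT HSCs. Its *Irf1-/-* libraries were all below its WT libraries, as for the class II chains and for 9.27% of all tested genes (log2 fold change −0.39, adjusted *P* = 0.427, limma). *Xcr1*, a marker of cross-presenting dendritic cells, had between 0.864 and 46.3 normalized counts, and *Itgax* (CD11c) was at 0 in *Irf1-/-* replicate 4.

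The 10 monocyte and macrophage markers summed to 2895, 2405, and 2894 in *Irf1-/-* HSCs and to 2261, 3462, and 2572 in WT HSCs, with *Cd68* the most abundant. No such marker was called by limma or edgeR among 10 tested, or by DESeq2 among the 8 to which it gave an adjusted *P*, and 0 had an unadjusted *P* under 0.05 in limma. WT replicate 3, which had the highest value of each class II chain, also had 808 normalized counts of *Ly6c2*, a monocyte antigen, against 2.47 and 60.2 in WT replicates 2 and 4. *Irf1-/-* HSCs had 168, 181, and 3.11 normalized counts of *Ly6c2*. The order of the WT libraries was the same for *Ly6c2* as for each chain, with replicate 2 lowest and replicate 3 highest. With WT replicate 3 left out, the log2 fold changes were −5.09 for *H2-Aa*, −2.50 for *H2-Ab1*, and −4.88 for *H2-Eb1*. Of 8 T and NK cell markers, 7 were in the table, and they summed to 3126, 2879, and 3832 in *Irf1-/-* HSCs and to 3850.4, 3557, and 3745 in WT HSCs. *Nkg7*, a granule protein, made up 77.6% of that sum, with 2389, 2174, and 2622 normalized counts in *Irf1-/-* HSCs and 3209, 2895, and 2992 in WT HSCs. Its *Irf1-/-* libraries were all below its WT libraries, as for the chains and for 9.27% of all tested genes. The fold threshold was not reached (log2 fold change −0.34, adjusted *P* = 0.0894, limma). Over 16 alternatives the adjusted *P* went from 0.0242 in DESeq2 to 0.320 in limma without the prior trend. Of the 4 T and NK cell markers tested, only *Nkg7* had a log2 fold change below 0, and 3 were above. *Cd8a* was at 0 reads in 3 of 6 libraries. Limma and edgeR called 0 of the 4 that were tested, DESeq2 called 0 of the 3 to which it gave an adjusted *P*, and 1, *Nkg7*, had an unadjusted *P* under 0.05 in limma. No marker of these lists was at 0 reads in all 6 libraries. The part of such cells in the class II values was not tested, and in bulk libraries fewer cells with class II RNA and less class II RNA per cell cannot be told apart.

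*H2-Aa*, which encodes the α chain of the A molecule, had 99.1, 47.5, and 92.4 normalized counts in *Irf1-/-* HSCs and 2531, 3636, and 2709.9 in WT HSCs. The genotypes were far apart, and the lowest WT library was above every *Irf1-/-* library. The mean fell from 2959 ± 593 in WT HSCs to 79.7 ± 28.1 in *Irf1-/-* HSCs (SD, 3 mice each), which left 2.69% (log2 fold change −5.25, SE 0.250, adjusted *P* = 3.04e-08, limma).

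*H2-Ab1*, the gene of its β chain partner, had 1158, 651, and 1218 normalized counts in *Irf1-/-* HSCs and 5323, 7442, and 5659 in WT HSCs. These did not overlap, but *Irf1-/-* HSCs kept a clear level in every library. The mean fell from 6141 ± 1139 to 1009 ± 311 (SD, 3 mice each), and 16.4% remained (log2 fold change −2.64, SE 0.197, adjusted *P* = 2.85e-06, limma). With no intensity trend in the prior variance *H2-Ab1* was not called (adjusted *P* = 0.0511, limma; largest of the 16 alternatives).

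*H2-Eb1* encodes the β chain of the E molecule. It had 42.6, 32.8, and 41.5 normalized counts in *Irf1-/-* HSCs and 1059.9, 1885, and 1293 in WT HSCs. All *Irf1-/-* libraries were low and close to each other. The mean fell from 1413 ± 426 to 39.0 ± 5.37 (SD, 3 mice each), and 2.76% remained (log2 fold change −5.11, SE 0.250, adjusted *P* = 3.42e-08, limma).

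**Figure D2:**
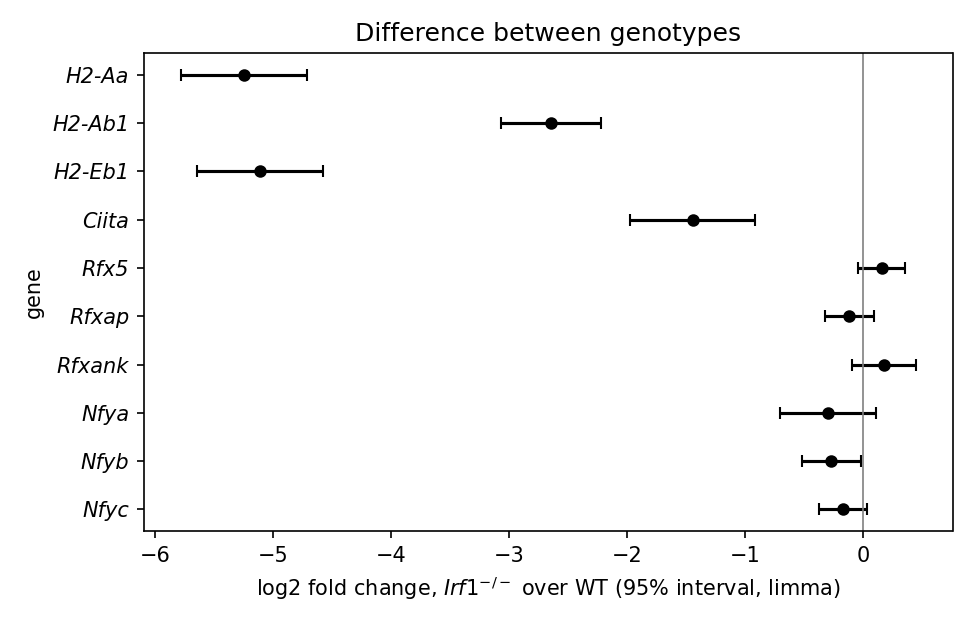
Log2 fold change of each member, *Irf1-/-* over WT, with its 95% interval from limma. *H2-Aa* (−5.25) and *H2-Eb1* (−5.11) lie far below *H2-Ab1* (−2.64) and *Ciita* (−1.44), and the RFX and NF-Y subunits lie between −0.30 and 0.18.

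Whether the chains fell by different amounts was asked with ratios inside each library. The ratios printed for each library do not depend on its size factor. Differences in log2 ratio were taken after 1 was added to each normalized count, so they do depend on it. With 0.5 or 5 added instead, the difference was 2.62 or 2.54 for *H2-Ab1* to *H2-Aa*. For *H2-Aa* to *H2-Eb1* it was −0.13 or −0.20. The ratio of *H2-Ab1* to *H2-Aa* was 2.10, 2.05, and 2.09 in WT HSCs, and these values were nearly the same in all 3 mice. In *Irf1-/-* HSCs it was 11.7, 13.7, and 13.2. The difference in log2 ratio was 2.61 (exact permutation test, two-sided, *P* = 0.1, which is the smallest possible for 3 against 3, and 0.15 adjusted over the 3 pairs compared).

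The ratio of *H2-Ab1* to *H2-Eb1* was 5.02, 3.95, and 4.38 in WT HSCs. It was 27.15, 19.8, and 29.3 in *Irf1-/-* HSCs. Its genotypes were also apart, with a difference in log2 ratio of 2.47 (exact permutation test, *P* = 0.1, adjusted 0.15). The ratio of *H2-Aa* to *H2-Eb1* was 2.39, 1.93, and 2.10 in WT HSCs and 2.325, 1.45, and 2.225 in *Irf1-/-* HSCs. These overlapped, and the difference in log2 ratio was −0.14 (exact permutation test, *P* = 0.8), which turned to 0.08 without *Irf1-/-* replicate 3.

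*Ciita* encodes the coactivator on which class II transcription depends. It had 272, 170.2, and 163 normalized counts in *Irf1-/-* HSCs and 393, 611, and 638 in WT HSCs. The genotypes did not overlap, and *Irf1-/-* replicate 2 came closest to WT. The mean fell from 547 ± 134 to 202 ± 60.9 (SD, 3 mice each), and 36.8% remained (log2 fold change −1.44, SE 0.248, adjusted *P* = 0.00580, limma). *Ciita*, too, was not called without that trend (adjusted *P* = 0.189, limma; largest of the 16 alternatives).

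In WT HSCs, *H2-Aa* had 6.44, 5.95, and 4.25 normalized counts for each of *Ciita*. In *Irf1-/-* HSCs it had 0.365, 0.279, and 0.567. *H2-Ab1* had 13.5, 12.2, and 8.87 in WT HSCs against 4.26, 3.82, and 7.47 in *Irf1-/-* HSCs. Both ratios were lower in every *Irf1-/-* library than in every WT library, and the genotype difference in these ratios was not tested.

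The RFX complex holds the X box. *Rfx5*, its DNA-binding subunit, had 3987, 3934, and 3512 normalized counts in *Irf1-/-* HSCs and 3524, 3522, and 3181 in WT HSCs. The genotypes overlapped (log2 fold change 0.16, 95% interval −0.04 to 0.36, adjusted *P* = 0.450, limma). *Rfxap*, the RFX-associated protein, had 2534, 2819.7, and 2419 in *Irf1-/-* HSCs and 2785, 2797, and 2811 in WT HSCs. The WT values were close together, and 1 *Irf1-/-* library lay above them (log2 fold change −0.11, 95% interval −0.32 to 0.09, adjusted *P* = 0.641, limma).

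*Rfxank*, the ankyrin repeat subunit, had 1098, 1389.5, and 1204 normalized counts in *Irf1-/-* HSCs and 1162, 1041, and 1046 in WT HSCs. The genotypes overlapped (log2 fold change 0.18, 95% interval −0.09 to 0.45, adjusted *P* = 0.551, limma). Of the 3 RFX subunits, limma, edgeR, and DESeq2 called 0, and 0 had an unadjusted *P* under 0.05 in limma. Their intervals did not reach the log2 threshold of 0.58 in either direction.

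NF-Y binds the Y box as a trimer. *Nfya*, the subunit that contacts the CCAAT letters, had 636, 398, and 614 normalized counts in *Irf1-/-* HSCs and 747, 585, and 659 in WT HSCs. *Irf1-/-* replicate 3 was low, and the other *Irf1-/-* libraries were within the WT range (log2 fold change −0.30, 95% interval −0.70 to 0.11, adjusted *P* = 0.502, limma).

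*Nfyb* and *Nfyc* encode the histone-fold subunits. *Nfyb* had 1929.5, 2109, and 1867 normalized counts in *Irf1-/-* HSCs and 2562, 2584, and 2001 in WT HSCs. The overlap came from *Irf1-/-* replicate 3 and WT replicate 4 (log2 fold change −0.27, 95% interval −0.52 to −0.02, adjusted *P* = 0.271, limma). *Nfyc* had 3363, 3826, and 3274 in *Irf1-/-* HSCs and 3999, 4093, and 3650.2 in WT HSCs, and these overlapped too (log2 fold change −0.17, 95% interval −0.37 to 0.04, adjusted *P* = 0.437, limma). Of the 3 NF-Y subunits, limma, edgeR, and DESeq2 called 0, and 1, *Nfyb*, had an unadjusted *P* under 0.05 in limma. The interval of *Nfya* alone went past −0.58.

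Levels were compared between members per kilobase, with the longest GENCODE vM1 transcript of each symbol. A shorter transcript would raise the value per kilobase, and other lengths were not tried, so the order of the members depends on this choice. In WT HSCs *H2-Ab1* stood highest, at 5071 ± 941 normalized counts per kilobase (SD, 3 mice), followed by *H2-Aa* at 2614 ± 524. *Nfyc* (1951 ± 116) came next, then *Rfxap* (1295 ± 6.09) and *H2-Eb1* (1199 ± 361) per kilobase. *Rfxap*, *H2-Eb1*, *Nfyb* (933 ± 129), and *Rfx5* (766 ± 44.3) overlapped from neighbour to neighbour. *Rfxank* (295 ± 18.6), *Nfya* (179 ± 21.9), and *Ciita* (103 ± 25.3) per kilobase were the lowest and were apart from each other.

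In *Irf1-/-* HSCs the order per kilobase was led by *Nfyc* (1739 ± 148) and *Rfxap* (1199 ± 95.5). *H2-Ab1* (833 ± 257) was further down and overlapped *Rfx5* (856 ± 58.5) and *Nfyb* (771 ± 49.3). *H2-Aa* (70.4 ± 24.8), *Ciita* (38.1 ± 11.5), and *H2-Eb1* (33.1 ± 4.56) were the lowest, below *Nfya* (148 ± 35.6), and overlapped from neighbour to neighbour.

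Other genes that make class II molecules work were taken from a list of 11, of which 10 were in the table and tested. Of these, 2 were called lower and 0 higher, and 4 (*Cd74*, *H2-DMa*, *H2-DMb1*, and *Ctss*) had an unadjusted *P* under 0.05 in limma, with a median log2 fold change of −0.20 against −0.0028 over all genes tested. *Cd74*, the invariant chain that escorts new class II molecules, had 403, 138, and 54.0 normalized counts in *Irf1-/-* HSCs and 6182, 7584, and 5526 in WT HSCs. The genotypes were far apart, and the *Irf1-/-* libraries also differed among themselves (log2 fold change −5.45, SE 0.468, adjusted *P* = 1.12e-05, limma).

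*H2-DMa*, a chain of the DM molecule that loads peptides, had 5573, 5590.1, and 6976 normalized counts in *Irf1-/-* HSCs and 8785, 9844, and 10815 in WT HSCs, without overlap (log2 fold change −0.70, adjusted *P* = 0.00258, limma). *H2-DMb1*, its partner chain, was also lower in every *Irf1-/-* library but missed the threshold (log2 fold change −0.34, adjusted *P* = 0.0551, limma). *H2-Oa* (log2 fold change 0.14) and *H2-Ob* (0.26), the chains of the DO molecule that restrains DM, overlapped between genotypes. *H2-Ea*, whose promoter is deleted in C57Bl/6 mice, had between 14.0 and 43.7 normalized counts. The lysosomal protease gene *Ctss* was called lower by DESeq2 but not by limma (log2 fold change −0.61, adjusted *P* = 0.120, limma).

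Among factors upstream of *Ciita*, the interferon-γ system was represented by the cytokine gene and its receptors. *Ifng* was at 0 reads in 5 of 6 libraries. The receptor genes *Ifngr1* (log2 fold change 0.27, adjusted *P* = 0.104, limma) and *Ifngr2* (log2 fold change 0.35, adjusted *P* = 0.172, limma) had all *Irf1-/-* libraries above all WT libraries and were not called.

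Coactivators and CREB-type factors of the assembly were a list of 14. Of these, limma, edgeR, and DESeq2 called 0, and 1, *Smarca4*, had an unadjusted *P* under 0.05 in limma, with log2 fold changes between −0.21 (*Smarca4*, which encodes a chromatin remodeler) and 0.29 (*Crem*) and a median of −0.06. Among 6 tested of 7 other RFX family members, the same 3 tools called 0 and 1, *Rfx8*, had an unadjusted *P* under 0.05 in limma. Their median log2 fold change was 0.03.

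The class I side was represented by 5 genes, of which 3 were called lower and 0 higher, and all 5 had *Irf1-/-* libraries below WT libraries and an unadjusted *P* under 0.05 in limma. *Nlrc5*, the class I transactivator, had 3932, 3267, and 3452 normalized counts in *Irf1-/-* HSCs and 5840.2, 5294, and 5141 in WT HSCs (log2 fold change −0.61, adjusted *P* = 0.00323, limma). *B2m* (log2 fold change −0.62, adjusted *P* = 0.00203, limma) encodes the light chain of class I, and *Tap1* (log2 fold change −0.63, adjusted *P* = 0.00403, limma) a peptide transporter. *H2-K1* (log2 fold change −0.50) and *H2-D1* (−0.44), the heavy chains, missed only the fold threshold. The median log2 fold change of this list was −0.61. *Nlrc5* was not called without *Irf1-/-* replicate 3 or WT replicate 2 (log2 fold change −0.56 in both cases), and *Tap1* was not called without *Irf1-/-* replicate 3 (log2 fold change −0.58) or WT replicate 3 (log2 fold change −0.55). Quantile normalization ended both calls (log2 fold change −0.58 for *Nlrc5* and −0.57 for *Tap1*). None of the 5 genes called in the class II and class I lists (*Cd74*, *H2-DMa*, *Nlrc5*, *B2m*, and *Tap1*) kept its call without the trend in the prior variance.

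The chain genes lie side by side, in the order *H2-Ab1*, *H2-Aa*, *H2-Eb1* of the GRCm38.p6 gene table, which was used only for which genes neighbour each other. A window of 12 tested genes on each side of *H2-Aa* held 22 genes other than the chains, of which 4 were called lower and 0 higher. The window and the genes named from it were chosen after values had been seen. *H2-Ob*, next to *H2-Ab1*, had a log2 fold change of 0.26 (SE 0.180), and *H2-Eb2*, next to *H2-Eb1*, had −0.24 (SE 0.710), so that the large falls were limited to the 3 chains within this window. The 4 called neighbours were *H2-DMa*, *Tap1*, and the immunoproteasome genes *Psmb8* (log2 fold change −0.86, adjusted *P* = 0.000160, limma) and *Psmb9* (log2 fold change −0.98, adjusted *P* = 9.98e-06, limma). Without the trend in limma's prior variance *Psmb8* was not called (adjusted *P* = 0.0854) and *Psmb9* was (adjusted *P* = 0.0318), each the largest of 16 alternatives. Class II α chain genes resemble each other in sequence, as do class II β chain genes, and no source used here says whether strand entered the counting. Reads of similar, overlapping, or antisense genes could have been left out or assigned to either gene, which was not tested.

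**Figure D3:**
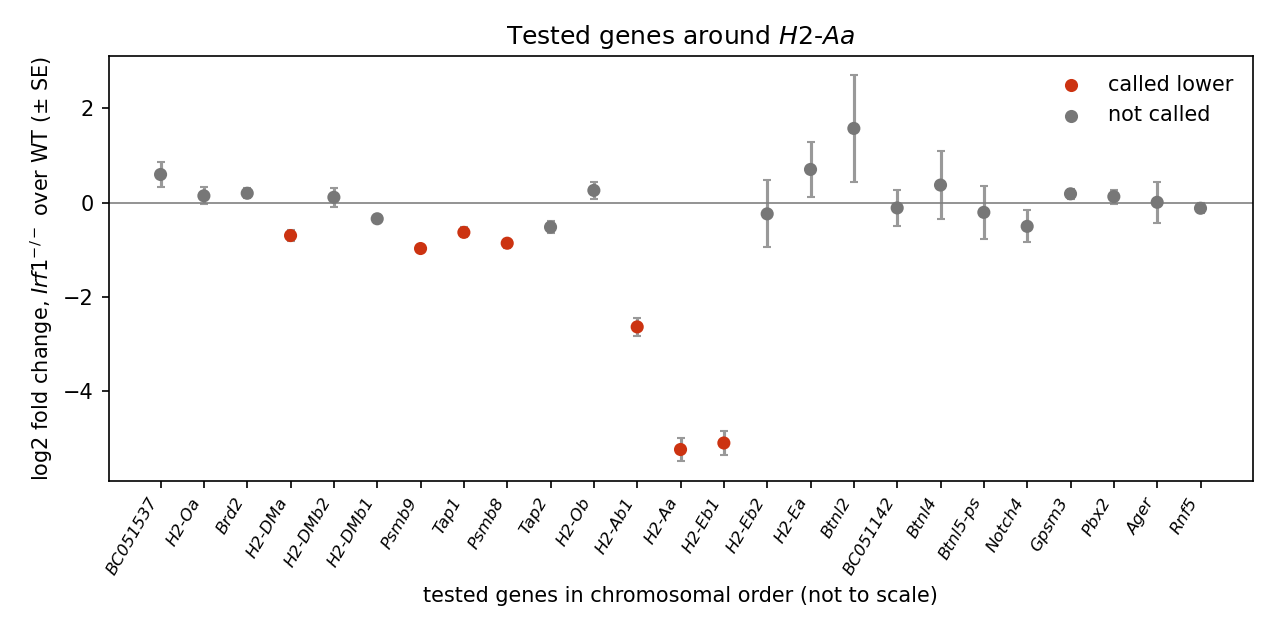
Log2 fold change (± SE, limma) of *H2-Aa* and the 12 tested genes on each side, in chromosomal order and not to scale, with called genes in red. The 3 chains lie between −5.25 and −2.64, and the called neighbours between −0.98 and −0.63.

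Promoter sequences of 7 of the 10 members were at hand from RefSeq (GRCm38.p6, which is not the mm39 build named in the submitters' processing notes). They covered *H2-Aa*, *H2-Eb1*, *Rfx5*, *Rfxank*, *Nfya*, *Nfyb*, and *Nfyc*, with 11 promoters in all. Motifs were searched on both strands, and the share of all 32851 promoters that hold each is given as background. CCAAT, the Y box core, was in both chain promoters and in 37.4% of all promoters. ACNGATG, a part of the X box, was also in both chain promoters and in 9.85% of all promoters. In *H2-Eb1* it began at −88 from the gene start. In *H2-Aa* it began at −232, far from the Y box core at −48 and outside the bases printed below. GAAANNGAA, an IRF-type motif (8.56% of all promoters), was in 0 of the 11 promoters.

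ACNGATG followed within 40 bases by ATTGG, the Y box core read on the other strand, was in the promoter of *H2-Eb1*, not in that of *H2-Aa*, and in 0.268% of all promoters. GCAAC followed within 40 bases by ATTGG, a pattern chosen after these sequences had been read, was in both and in 1.56% of all promoters. The 150 bases before the start of both genes are shown because these chains fell the most, with GCAAC and ATTGG in capitals. They lie at chr17:34287824-34287973 on the minus strand for *H2-Aa* and at chr17:34305717-34305866 on the plus strand for *H2-Eb1*. The capitals are 28 bases apart in *H2-Aa* and 27 in *H2-Eb1*.
H2-Aa promoter: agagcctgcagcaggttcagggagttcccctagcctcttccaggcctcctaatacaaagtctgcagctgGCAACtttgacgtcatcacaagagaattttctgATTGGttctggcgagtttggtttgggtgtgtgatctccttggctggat
H2-Eb1 promoter: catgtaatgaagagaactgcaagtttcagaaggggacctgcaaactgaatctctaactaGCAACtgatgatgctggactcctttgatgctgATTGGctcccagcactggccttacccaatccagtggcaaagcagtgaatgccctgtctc

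Among the promoters of the other pathway genes, the ACNGATG pattern followed by ATTGG was in those of *H2-DMb1*, *H2-DMb2*, *H2-Eb2*, and *H2-D1*. *H2-DMb1* (log2 fold change −0.34) and *H2-D1* (−0.44) had all *Irf1-/-* libraries below all WT libraries, *H2-DMb2* (0.11) and *H2-Eb2* (−0.24) overlapped, and limma called none of these 4. The GCAAC pattern was in those of *H2-Oa*, *H2-Ob*, *H2-Eb2*, and the acetyltransferase gene *Kat2b*, whose log2 fold changes (0.14, 0.26, −0.24, and 0.18) were not called by limma. A match describes letters in this window and not a bound site.

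The 5 genes outside the members whose log2 values over the 6 libraries were most like the mean of the 3 chains were *Cdk7* (Pearson *r* = 1.000), *Gbp8* (0.999), *Gm4841* (0.997), *Aldh1a1* (0.996), and *Zbp1* (0.996). The libraries fall into the same genotypes for each, so these values are a description. *Cdk7*, a kinase of the transcription machinery, had 4077, 4038, and 4074 normalized counts in *Irf1-/-* HSCs and 4246, 4284, and 4257 in WT HSCs, a similar shape with a much smaller size (log2 fold change −0.07, adjusted *P* = 0.768, limma). *Zbp1*, an interferon-induced nucleic acid sensor, had 51.2, 25.1, and 51.9 in *Irf1-/-* HSCs and 1263, 1249.8, and 1084 in WT HSCs (log2 fold change −4.85, adjusted *P* = 1.61e-07, limma). *Cd74* ranked 134 of 17394 genes by this measure (*r* = 0.951).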

How the data were processed

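Reads were trimmed with Trim Galore, aligned with HISAT2 (mm39, per the submitters' processing notes), and counted with Htseq-count. The values the authors deposited are a signal, namely read counts scaled in each library by 1 DESeq2 size factor. Annotation, tool versions, and strand setting are not given in the sources used here. All values (100%) were whole multiples of the value of 1 read (tolerance 0.01), so reads were recovered. cDNA was made with SMART-Seq v4 without molecular identifiers, so PCR copies count as reads. limma 3.58.1 (R 4.3.3; trended prior, Benjamini-Hochberg) tested the genotypes. The planned test assumed normalized counts, and edgeR 4.0.16 and DESeq2 1.42.0 on the recovered reads were alternatives. On recovered reads edgeR called 162 genes lower and 165 higher. Chain ratios were compared with exact permutation tests (scipy 1.17.1). Other alternatives covered the pseudocount, low-value filter, scaling, prior trend, replicate block, and each library left out. The named genes were the members, *Irf1*, every gene of the lists, and the 5 genes most like the chains. Some results that this rule covers are not reported here. Members and lists were chosen with earlier results of these data known. The 3 mice per genotype are separate biological replicates per the labels.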

Additional observations from a re-analysis of the deposited data

How the results depend on the processing

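Over all genes, limma called 166 lower and 167 higher. Each member kept its direction in all 16 alternatives. Of the 10 members, the number called lower was 4 in each alternative except limma without a trend in the prior variance, where it was 2, with log2 fold changes of −2.64 for *H2-Ab1* (adjusted *P* = 0.0511) and −1.44 for *Ciita* (adjusted *P* = 0.189) no longer called. That fit called 33 genes lower and 7 higher over all genes, and the cause was not tested. DESeq2 called 208 genes lower and 289 higher. With each library left out in turn, genes called lower numbered 105 (without WT replicate 3) to 265 (without WT replicate 4), and genes called higher 83 (without *Irf1-/-* replicate 4) to 304 (without WT replicate 4), with 104 without *Irf1-/-* replicate 2 and 102 without WT replicate 3. Members called lower stayed at 4 in each of these.

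The difference in log2 ratio of *H2-Aa* to *H2-Eb1* ranged from −0.26 to 0.08 with a library left out, and turned positive (0.077) without *Irf1-/-* replicate 3. The other ratios kept their direction in their 8 alternatives. The promoter share with an X part followed by ATTGG went from 0.268% to 1.56% with GCAAC, which was chosen after the sequences had been read.

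Same-numbered libraries of the 2 genotypes correlated at −0.094, 0.246, and 0.147 in their deviations from the group means. With 3 libraries per genotype these values cannot show whether same-numbered libraries were paired. With the replicate block, 196 genes were called lower and 219 higher, 4 members stayed called lower, and the log2 fold change of *Ciita* was −1.44 (limma, adjusted *P* = 0.0123). Not every library correlated best with its own number.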
